A study of Mus musculus with 12 samples.

Results

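The genes that write, copy, read and remove DNA methylation were followed in bone marrow of mice with a JMML-like disease, across treatment with a MEK inhibitor, a hypomethylating drug, or both. The set holds 10 genes, taken by gene name from a table of 56350: Dnmt1, Dnmt3a, Dnmt3b, Uhrf1, Hells, Tet1, Tet2, Tet3, Gadd45a and Mbd2. All 10 were found once, and all 10 had enough counts to be among the 17475 genes tested.

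RNA was sequenced from bone marrow cells of 12 mice, 3 in each of 4 groups: combination, 5-azacitidine, PD-901 and vehicle. All 12 mice were Shp2E76K/+;LysM-Cre+ on a C57BL/6 background, 12 to 14 weeks old, so every group carried the mutation and no group was healthy. Shp2E76K is an activating allele of the phosphatase encoded by Ptpn11, and LysM-Cre is expressed from the Lyz2 locus, which is active in myeloid cells. Juvenile myelomonocytic leukaemia (JMML) is a childhood disease of overactive Ras signalling. The combination mice received 20 doses of PD-901 (PD0325901) by mouth and 5 doses of 5-azacitidine into the peritoneum within 4 weeks, each dose 5 mg/kg. The 5-azacitidine mice received the same 5 doses of that drug alone, the PD-901 mice the same 20 doses of that drug alone, and the vehicle mice neither drug. Both sexes were used, and the sex of a single mouse is not in the labels.

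DNA methylation sits mainly on cytosines followed by guanine (CpG) and has to be copied each time the DNA is replicated. UHRF1 binds the half-methylated DNA behind the replication fork and brings in DNMT1, which restores the mark, while HELLS (LSH) is a chromatin remodeller that opens packed DNA to the methyltransferases. DNMT3A and DNMT3B set new marks, and the TET enzymes oxidise 5-methylcytosine so that it can be lost by dilution or by repair. DNMT3A and TET2 are among the genes most often mutated in human myeloid disease. 5-azacitidine is built into nucleic acid in place of cytidine and, in DNA, traps the DNMT proteins. The values below are RNA levels, and neither protein nor methylation was measured in these files.

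Total counts ran from 15356919 to 27148190 per library, with 1 library per mouse. Levels are given as CPM, a gene's count scaled to a fixed library size after TMM scaling, which corrects for differences in library composition. Xist, the transcript that silences an X chromosome, was above 100 CPM in 0 of 3 combination, 1 of 3 5-azacitidine, 2 of 3 PD-901 and 3 of 3 vehicle libraries, so that Xist status and the combination cannot be told apart in the comparison of the combination with vehicle. Vehicle replicates 1 and 2 and combination replicates 1 and 2 stood apart with the lowest Lyz2 levels, 44.9 to 172 CPM. The epithelial markers Epcam, Krt8 and Krt18 summed to 2.74 to 5.77 CPM in every library, whereas mature neutrophil markers summed to at least 16794 CPM.

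The promoters of the 3 genes that serve the copying of methylation are shown first, because in these 3 of the 9 genes with a promoter window in use an E2F-type motif was found, in 1 window each. E2F factors bind such motifs and drive genes of the G1 to S transition. The search covered the 250 bases before each RefSeq start site (GRCm38.p6) for TTTGGCGC, TTTCCCGC, TTTCGCGC or TTTGCCGC on both strands. RefSeq gives Dnmt1 and Dnmt3a 3 start sites each and Uhrf1 2, so the 9 genes have 14 windows. Capitals mark the match, and each sequence runs 5′ to 3′ along the strand of its gene.

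Dnmt1: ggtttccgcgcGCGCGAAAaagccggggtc

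Uhrf1: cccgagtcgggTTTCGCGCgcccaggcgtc

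Hells: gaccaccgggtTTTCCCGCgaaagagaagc

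The Dnmt1 match lies within chr9:20952824-20952853, 211 bases before a start site at 20952623, and reads TTTCGCGC on the plus strand, opposite to the gene. That start lies 7265 bases inside the annotated gene, and the windows of the other two Dnmt1 starts, the one at the outer end of the gene included, held no motif. The stretch is untranslated exon of 2 annotated Dnmt1 transcripts. The Uhrf1 match is on the plus strand within chr17:56304117-56304146, 177 bases before a start site 992 bases inside the annotated gene, and outside annotated exons. The other Uhrf1 window held no motif. The Hells match is on the plus strand within chr19:38930917-38930946, 54 bases before the start, in untranslated exon of 1 transcript. Of 32851 windows of the same length, 611 (1.86%) held at least 1 of the motifs, against 3 of the 14 windows of the methylation genes. Every motif searched contains CpG. The matching windows of Dnmt1, Uhrf1 and Hells held 26, 30 and 28 CpG, against a median of 6 over all windows. These shares therefore do not compare windows of like CpG content. Mbd2 is the gene without a window in use. A match is a run of letters and does not show that a factor binds there.

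The promoter windows differed widely in CpG content. In 250 bases Tet2 had 51 CpG, Hells 28, Dnmt3b 21, Tet3 17, Tet1 15 and Gadd45a 11. The genes with several starts had 40, 38 and 15 (Dnmt3a), 30 and 10 (Uhrf1), and 26, 7 and 2 (Dnmt1, with 2 at the outer end of the gene). Over all windows the median was 6, with quartiles of 2 and 16. Of the 14 windows 8 lay above the upper quartile, 6 below it and 1 below the median.

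The genes differed widely in level. Per kilobase of exon, vehicle marrow held 73.6 ± 7.00 CPM of Mbd2 (SD, n = 3), 60.9 ± 4.92 of Uhrf1, 49.6 ± 4.55 of Dnmt1 and 44.4 ± 9.62 of Gadd45a. Hells followed at 8.70 ± 0.833 CPM per kilobase and Tet3 at 7.04 ± 0.361. Dnmt3a (3.91 ± 0.879), Tet2 (3.20 ± 0.341), Dnmt3b (2.58 ± 0.415) and Tet1 (0.323 ± 0.0931) were the lowest 4. Among neighbours in that order the vehicle libraries overlapped between Dnmt1 and Gadd45a, Dnmt3a and Tet2, and Tet2 and Dnmt3b, and not between the other pairs. The maintenance methyltransferase was thus far above both de novo enzymes, and Tet3 was the most abundant and Tet1 the least abundant of the TET genes.

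**Figure D1:**
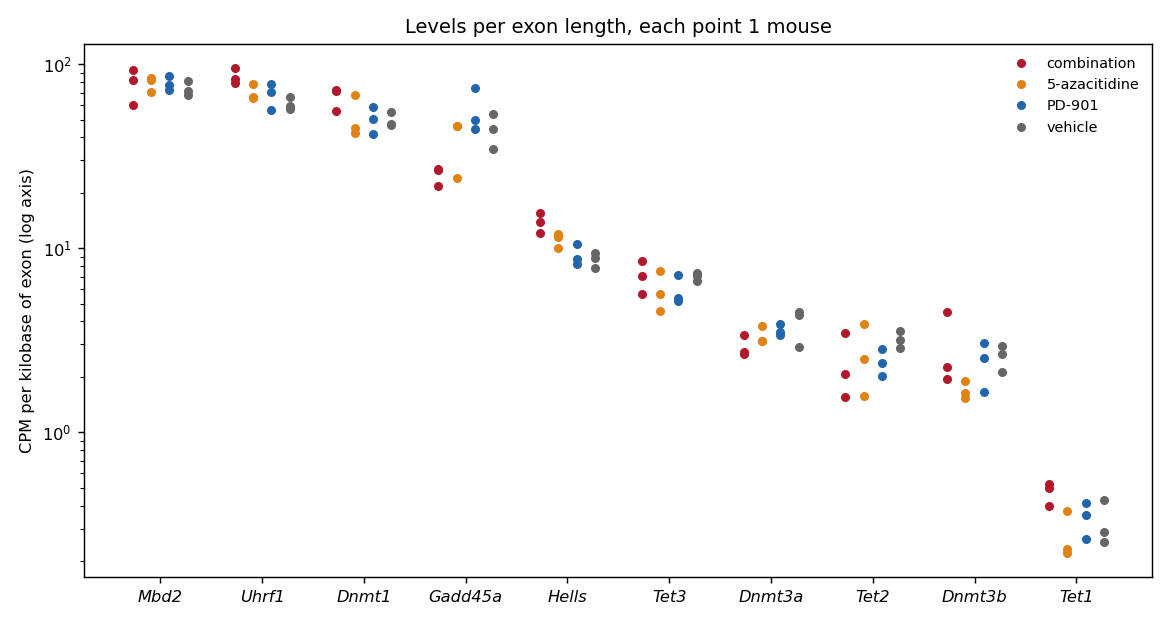
Level of each of the 10 genes in CPM per kilobase of exon (vertical log axis), with 1 point per mouse, coloured by group in the order combination, 5-azacitidine, PD-901 and vehicle. The genes run from Mbd2, Uhrf1, Dnmt1 and Gadd45a at the top to Tet1 below 1 CPM per kilobase in all groups.

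In combination marrow Uhrf1 was first at 86.0 ± 8.14 CPM per kilobase, Mbd2 stood at 78.4 ± 16.9 and Dnmt1 at 66.6 ± 9.40, and Gadd45a was at 25.3 ± 2.90, with no overlap between the Dnmt1 and Gadd45a libraries. In PD-901 marrow Gadd45a stood above Dnmt1, at 56.3 ± 15.9 against 50.2 ± 8.37 CPM per kilobase, with overlapping libraries.

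Against vehicle, Hells and Uhrf1 were higher and Gadd45a was lower in combination marrow, and the other 7 genes did not pass the test. These 3 of 10 genes compare with 13.8% of all genes tested that were called in this comparison (5.78% higher, 7.97% lower), by edgeR's quasi-likelihood test at an adjusted p under 0.05. The median log2 change of the 10 genes was 0.13, and that of all genes tested 0.01. No gene of the set was called in 5-azacitidine marrow or in PD-901 marrow against vehicle, where 0.00572% and 0% of all genes were called. At an unadjusted p under 0.05, edgeR found 1 (Hells) and 0 genes of the set in those comparisons, against 15.3% and 4.88% of all genes, and DESeq2 and limma-voom called 0 of the set in either. The comparisons against vehicle share the same 3 vehicle libraries.

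Groups whose libraries did not overlap were counted as well. The combination libraries lay above the vehicle libraries for 3 of 10 genes (Dnmt1, Uhrf1 and Hells) and below for 1 (Gadd45a), beside 16.1% and 15.9% of all genes. The 5-azacitidine libraries lay above vehicle for Hells and below for Dnmt3b, beside 10.8% and 9.77% of all genes. The PD-901 libraries lay above vehicle for 0 genes and below for Tet2, beside 6.83% and 5.93% of all genes.

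**Figure D2:**
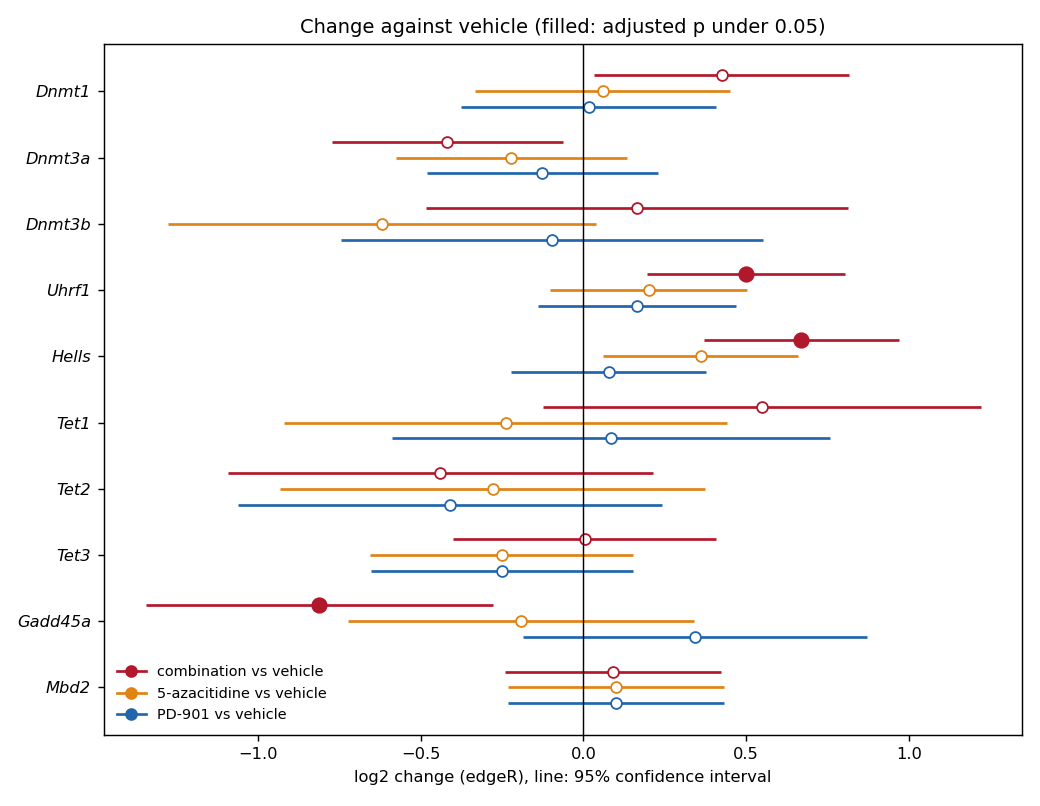
Log2 change against vehicle from edgeR for the 10 genes (horizontal axis), with 95% confidence intervals as lines and filled points where the adjusted p is under 0.05, for the combination, 5-azacitidine and PD-901 from top to bottom within a gene. The 3 filled points, Hells at 0.67, Uhrf1 at 0.50 and Gadd45a at -0.81, all belong to the combination.

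Hells (chr19:38930915-38971051, mm10, plus strand), the remodeller, was the gene of the set with the lowest p. It had 100.3, 112 and 87.0 CPM in combination libraries, 86.1, 72.4 and 82.9 CPM in 5-azacitidine libraries, 63.1, 76.0 and 59.5 CPM in PD-901 libraries and 56.3, 68.2 and 63.6 CPM in vehicle libraries. The 3 combination libraries lay above all 9 others, narrowly so at 87.0 CPM against 86.1 CPM in 5-azacitidine replicate 1. How many of all genes show that pattern was not counted. The 5-azacitidine libraries lay above the vehicle ones. Hells averaged 99.8 ± 12.6 CPM in combination marrow and 62.7 ± 6.00 CPM in vehicle marrow (SD, n = 3), a log2 change of 0.67 ± 0.14 (SE) or 1.59-fold (edgeR adjusted p = 0.00784). It was also higher in combination than in PD-901 marrow, by 0.59 ± 0.14 (adjusted p = 0.0208). That second call was lost without PD-901 replicate 1 (adjusted p = 0.0950) or 3 (0.0857), and without combination replicate 1 (0.0731) or 2 (0.0552), whereas the call against vehicle held without any 1 library (highest adjusted p = 0.0391). With 5-azacitidine alone the change against vehicle was 0.36 ± 0.14 (edgeR adjusted p = 0.245).

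Uhrf1 (chr17:56303321-56323486, plus strand) showed a like order of groups with a smaller change. Combination libraries held 355, 339 and 405 CPM, 5-azacitidine libraries 334, 281 and 278 CPM, PD-901 libraries 241, 300.1 and 331 CPM, and vehicle libraries 242, 282 and 253 CPM. Again each combination library was above all the others, narrowly so at 339 CPM against 334 CPM in 5-azacitidine replicate 1. How many of all genes show this was not counted. The single agents overlapped with vehicle. Uhrf1 rose to 366 ± 34.7 CPM in combination marrow, against 259 ± 20.9 CPM in vehicle marrow (log2 change 0.50 ± 0.14, 1.41-fold, edgeR adjusted p = 0.0311). The size of the change stayed between 0.42 and 0.56 without any 1 library, but the call was lost without vehicle replicate 1 (adjusted p = 0.113), 2 (0.0526) or 3 (0.0773), or without combination replicate 1 (0.0793) or 3 (0.132).

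Dnmt1 (chr9:20907209-20959888, minus strand), the maintenance methyltransferase and a main target of 5-azacitidine, did not pass. It had 411, 532 and 531 CPM in combination libraries, 499, 314 and 331 CPM in 5-azacitidine libraries, 307, 373 and 430.0 CPM in PD-901 libraries and 343, 404 and 350.4 CPM in vehicle libraries. The combination and vehicle libraries did not overlap, but combination replicate 1 was within the range of both single agents. The log2 change of the combination against vehicle was 0.43 ± 0.18, with a 95% interval of 0.03 to 0.82 and an edgeR adjusted p of 0.146. Against vehicle it was 0.06 (interval -0.33 to 0.45) for 5-azacitidine and 0.02 (interval -0.38 to 0.41) for PD-901, so a change of Dnmt1 RNA beyond 0.45 in either direction lies outside both intervals.

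**Figure D3:**
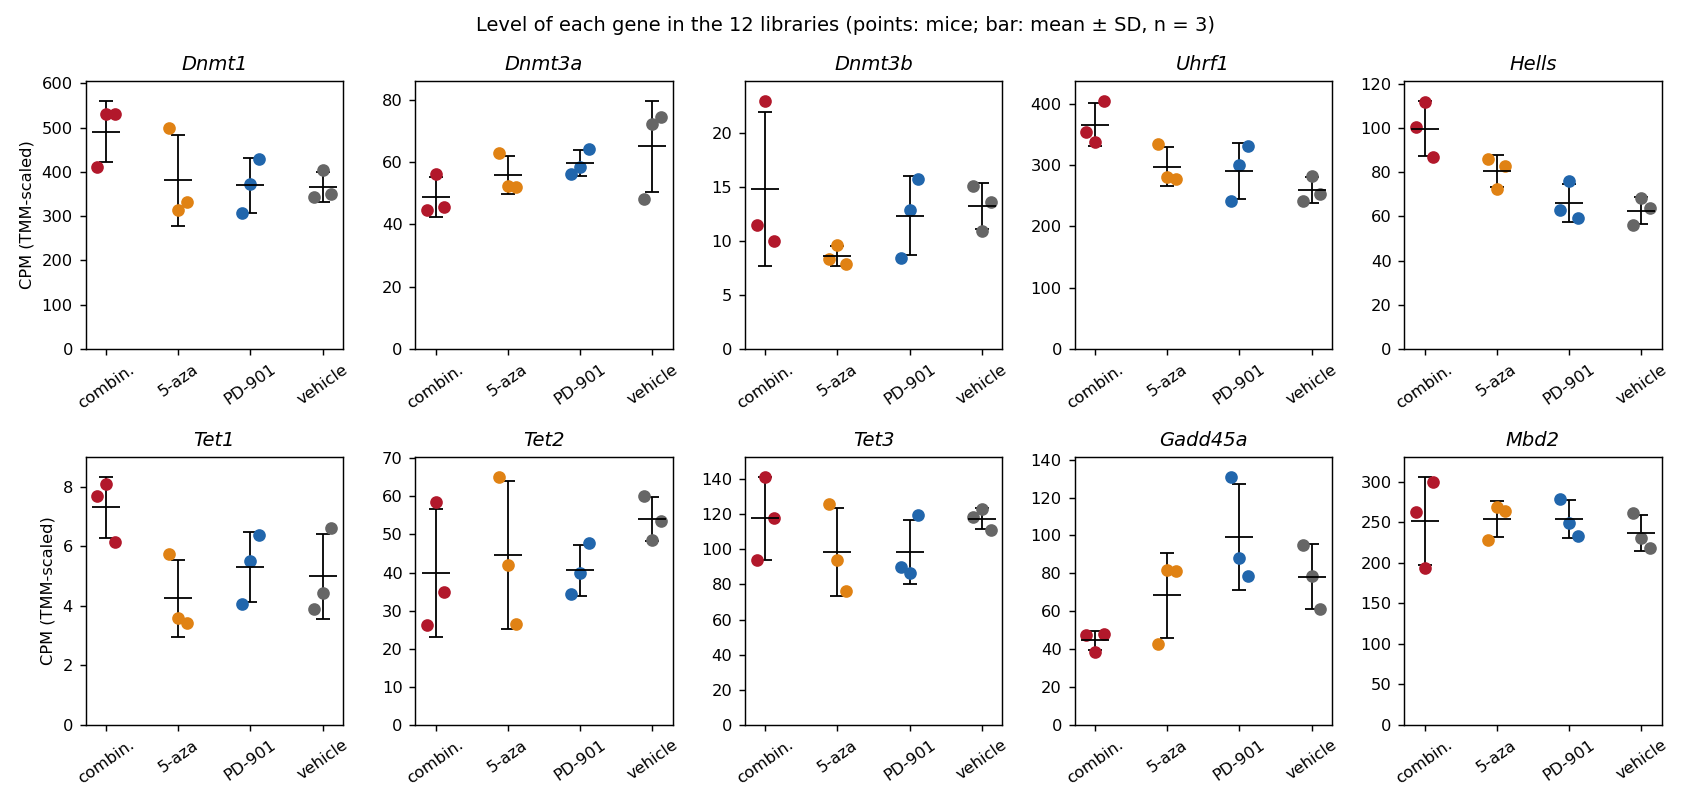
CPM of the 10 genes, 1 panel per gene, with a point for each mouse and the mean ± SD (n = 3) as a bar, in the order combination, 5-azacitidine, PD-901 and vehicle. Hells, Uhrf1 and Dnmt1 are highest in the combination, Gadd45a is lowest there, and 5-azacitidine replicate 1 (leftmost of its 3 points) lies near the combination for Dnmt1 and Gadd45a.

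The de novo methyltransferases passed in no comparison by edgeR. Dnmt3a (chr12:3806007-3914443, plus strand) had 44.5, 56.0 and 45.4 CPM in combination libraries, 62.9, 52.3 and 52.1 CPM in 5-azacitidine libraries, 56.1, 58.4 and 64.2 CPM in PD-901 libraries and 48.2, 72.3 and 74.6 CPM in vehicle libraries. The combination libraries overlapped with vehicle through the low vehicle replicate 1 and lay below all 3 PD-901 libraries. The log2 change of the combination was -0.42 ± 0.17 against vehicle (edgeR adjusted p = 0.112) and -0.29 ± 0.17 against PD-901 (adjusted p = 0.342). Without vehicle replicate 1 the change against vehicle was -0.58 and passed the test (adjusted p = 0.0352). Within each library, CPM per kilobase of Dnmt3a over that of Dnmt1 was 0.0480, 0.0467 and 0.0380 with the combination, against 0.0623, 0.0792 and 0.0943 with vehicle. The combination libraries all lay below the vehicle libraries on that ratio, with means of 0.0442 ± 0.00546 and 0.0786 ± 0.0160, and a ratio within a library does not depend on how libraries are scaled. With 5-azacitidine it was 0.0558, 0.0738 and 0.0698, and with PD-901 0.0811, 0.0693 and 0.0662, both overlapping with vehicle. The ratio was not tested, and other gene pairs were not counted. Of single genes, 15.9% of all tested had combination libraries wholly below vehicle.

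Dnmt3b (chr2:153649450-153687730, plus strand) was lowest with 5-azacitidine alone. Its levels were 11.5, 22.9 and 9.98 CPM in combination libraries, 8.31, 9.65 and 7.83 CPM in 5-azacitidine libraries, 8.45, 12.9 and 15.7 CPM in PD-901 libraries and 15.1, 10.9 and 13.6 CPM in vehicle libraries. The 5-azacitidine libraries did not overlap with the vehicle or the combination libraries, and combination replicate 2 was the highest of all 12. Against vehicle the log2 change was -0.62 ± 0.31 for 5-azacitidine (edgeR adjusted p = 0.356) and 0.16 ± 0.30 for the combination (adjusted p = 0.806). The combination against 5-azacitidine gave 0.78 ± 0.31 (unadjusted p = 0.0228, adjusted p = 0.223). Without combination replicate 2 the change of the combination against vehicle was -0.30.

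None of the TET genes, which oxidise 5-methylcytosine, passed in any comparison. Tet1 (chr10:62804570-62908996, minus strand) was scarce, at 7.68, 8.11 and 6.15 CPM in combination, 5.74, 3.57 and 3.43 CPM in 5-azacitidine, 4.05, 5.49 and 6.37 CPM in PD-901 and 3.90, 4.44 and 6.62 CPM in vehicle libraries. The combination libraries lay above the 5-azacitidine ones and overlapped with PD-901 and vehicle. Its log2 change was 0.55 ± 0.32 against vehicle (edgeR adjusted p = 0.289) and 0.79 ± 0.32 against 5-azacitidine (adjusted p = 0.236).

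Tet2 (chr3:133463679-133545139, minus strand), which limits self-renewal of blood stem cells, had 26.2, 58.5 and 34.9 CPM in combination libraries, 65.2, 42.0 and 26.6 CPM in 5-azacitidine libraries, 34.3, 39.9 and 47.7 CPM in PD-901 libraries and 60.0, 48.5 and 53.6 CPM in vehicle libraries. The spread within the combination and 5-azacitidine groups was wide, and the PD-901 libraries lay below all vehicle libraries. The log2 changes against vehicle were -0.44 ± 0.30 for the combination, -0.28 ± 0.30 for 5-azacitidine and -0.41 ± 0.30 for PD-901 (edgeR adjusted p = 0.397, 0.713 and 0.963).

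Tet3 (chr6:83362373-83459084, minus strand) averaged 118 ± 23.8 CPM in combination marrow and 117 ± 6.03 CPM in vehicle marrow, with a log2 change of 0.00 and a 95% interval of -0.40 to 0.41. Tet2 and Tet3 varied together over the 12 libraries (Pearson r = 0.78, Spearman rho = 0.79, and r = 0.91 after the group means were taken out), given as a description of libraries that share groups and scaling. The ratio of Tet2 to Tet3 per kilobase was 0.276, 0.409 and 0.293 in combination libraries and 0.502, 0.390 and 0.477 in vehicle libraries, which overlap.

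Gadd45a (chr6:67035096-67037457, minus strand) is a stress- and p53-induced gene whose protein binds PCNA and has been linked to repair-based demethylation. Of the set it was the single gene called lower in the combination. It had 47.2, 38.7 and 47.8 CPM in combination libraries, 42.4, 81.5 and 81.3 CPM in 5-azacitidine libraries, 131, 88.0 and 78.6 CPM in PD-901 libraries and 95.0, 78.7 and 61.0 CPM in vehicle libraries. The combination libraries lay below all PD-901 and vehicle libraries, and 5-azacitidine replicate 1 lay among them. Gadd45a fell to 44.5 ± 5.11 CPM in combination marrow, against 78.2 ± 17.0 CPM in vehicle marrow (log2 change -0.81 ± 0.25, edgeR adjusted p = 0.0440). Against the 99.2 ± 28.0 CPM of PD-901 marrow the change was -1.16 ± 0.25, which is 2.23-fold lower (adjusted p = 0.0141).

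The call of Gadd45a against vehicle was close to the threshold. It was lost with limma-voom (adjusted p = 0.0586) and in edgeR without vehicle replicate 1 (0.207) or 2 (0.101), PD-901 replicate 2 (0.0596), 5-azacitidine replicate 2 (0.0525) or 3 (0.0573), or combination replicate 1 (0.121), 2 (0.119) or 3 (0.102). The fall against PD-901 was lost without PD-901 replicate 1 (adjusted p = 0.0871) or combination replicate 1 (0.0603). Its annotated exons share 337 bases, 19.1% of their length, with E230016M11Rik on the opposite strand, and the sources used here do not say whether reads were counted by strand, so some of the counts may belong to that gene. The other genes shared at most 0.799% of their exon bases with another gene.

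Mbd2 (chromosome 18, 70568189 to 70626131, plus strand), which reads methylated CpG and recruits the NuRD repressor complex, averaged 252 ± 54.3 CPM in combination, 253 ± 22.3 CPM in 5-azacitidine, 254 ± 23.1 CPM in PD-901 and 237 ± 22.5 CPM in vehicle marrow. The 4 groups overlapped. The log2 change of the combination against vehicle was 0.09, with a 95% interval of -0.24 to 0.42 (edgeR adjusted p = 0.789).

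Comparing the combination with each single agent asks what the second drug added. Against PD-901, Hells was higher and Gadd45a lower, 2 of 10 genes beside 6.82% of all genes tested (1.69% higher, 5.12% lower), and 4 (Dnmt1, Uhrf1, Hells and Gadd45a) had an unadjusted p under 0.05, beside 21.7%. The combination libraries lay above the PD-901 libraries for Hells and Uhrf1 and below for Dnmt3a and Gadd45a, beside 12.7% and 15% of all genes. Against 5-azacitidine edgeR called 0 of 10, beside 1.32% of all genes (0.252% higher, 1.07% lower). The combination libraries lay above those of 5-azacitidine for 4 genes (Dnmt3b, Uhrf1, Hells and Tet1) and below for 0, beside 9.1% and 9.54% of all genes. At an unadjusted p under 0.05 there were 4 genes (Dnmt3b, Tet1 and Hells upward, Gadd45a downward) beside 15.8% of all genes, and DESeq2 and limma-voom called 0. Without 5-azacitidine replicate 1, whose Gadd45a level was 42.4 CPM, Gadd45a passed as lower in the combination (log2 change -0.87, edgeR adjusted p = 0.0400, against -0.62 and 0.236 with all libraries). In that replicate Dnmt1, at 499 CPM, also lay nearer to the combination libraries than to the other 5-azacitidine libraries.

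The interaction, the change of the combination beyond the sum of the single-agent changes on the log2 scale, was called for 0 of 10 genes and for 0% of all genes by edgeR, with 1 gene of the set (Gadd45a) and 10.7% of all genes at an unadjusted p under 0.05. DESeq2 and limma-voom called 0 of the set. Gadd45a had an interaction of -0.96 ± 0.35 (adjusted p = 0.329), and Dnmt3b of 0.88 ± 0.43 (adjusted p = 0.487). A joint test for any difference among the 4 groups passed for Hells (edgeR adjusted p = 0.0250) and Gadd45a (adjusted p = 0.0489), 2 of 10 genes beside 6.96% of all genes. Leaving out any 1 combination library left no gene past the joint test. With 1 other library left out, vehicle replicate 1 or 2, PD-901 replicate 1 or 2, or 5-azacitidine replicate 3, 1 gene passed.

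The share of counts from mitochondrial genes was 1.75 to 1.81% in combination libraries, above the 1.24 to 1.72% of 5-azacitidine, 1.01 to 1.27% of PD-901 and 1.16 to 1.29% of vehicle libraries. Its part in the results was not tested.

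In whole marrow fewer cells of a type and less RNA per cell cannot be told apart. RNA of cell type markers moved with the combination. Against vehicle, 5 of 5 promyelocyte markers and 9 of 10 erythroid markers were higher, while 6 of 11 mature neutrophil, 4 of 7 monocyte, 5 of 6 dendritic cell and 10 of 10 B lineage precursor markers were lower. Summed promyelocyte markers ran from 6024 to 9180 CPM in combination and from 4507 to 5358 CPM in vehicle libraries. They ran from 5679 to 10218 CPM with 5-azacitidine, above vehicle as well, and from 5199 to 5617 CPM with PD-901. Summed erythroid markers ran from 1927 to 5767 CPM in combination and from 1238 to 2036 CPM in vehicle libraries. They ran from 2268 to 3056 CPM with 5-azacitidine and from 2571 to 3902 CPM with PD-901, both above vehicle. Summed mature neutrophil markers ran from 16794 to 21402 CPM in combination and from 23063 to 46667 CPM in vehicle libraries. They ran from 31948 to 46028 CPM with 5-azacitidine and from 31419 to 49540 CPM with PD-901. Summed B lineage precursor markers ran from 88.5 to 238 CPM in combination and from 444 to 519 CPM in vehicle libraries. They ran from 184 to 527 CPM with 5-azacitidine and from 630 to 718 CPM with PD-901. None of these markers was called by edgeR in either single-agent group against vehicle. Their part in the changes of Hells, Uhrf1 and Gadd45a was not tested.

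Xist status did not vary within the combination or the vehicle group, so a term for it was estimated from the single-agent libraries alone. That widens the error of the combination against vehicle. The term was -0.061 for Hells, 0.13 for Uhrf1 and -0.13 for Gadd45a (edgeR unadjusted p = 0.708, 0.418 and 0.612). With Xist status as a covariate, a choice made after seeing the data, edgeR called 0 genes for the combination against vehicle. At an unadjusted p under 0.05 there were 2830. The log2 changes were then 0.61 for Hells, 0.63 for Uhrf1 and -0.95 for Gadd45a (edgeR adjusted p = 0.176, 0.162 and 0.208). Without the 4 libraries lowest in Lyz2, which leaves 1 combination and 1 vehicle library assumed to vary like the other groups, they were 0.45, 0.68 and -0.35 (adjusted p = 0.536, 0.227 and 0.881).

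Maintenance methylation is tied to replication, so the genes were also set against 25 S phase genes (MCM helicase subunits, DNA polymerases, other replication factors, enzymes of deoxynucleotide supply, the E cyclins Ccne1 and Ccne2, the transcription factor E2f1 and the histone mRNA factor Slbp). In combination marrow 24 of the 25 rose against vehicle by edgeR, beside 5.78% of all genes called higher. The median log2 change of the 25 was 0.71, beside 0.01 over all genes tested. Ccne1 (1.23) and Ccne2 (0.98) had the largest changes of the list with the combination. With 5-azacitidine 24 and with PD-901 25 of the 25 had positive changes against vehicle. Their medians were 0.40 and 0.26, and edgeR called 0 in both comparisons. Within each library the level of a gene was expressed as its log2 CPM minus the mean log2 CPM of the 25. Relative to S phase, Hells was at -0.57, -0.13 and -0.83 in combination libraries and at -0.54, -0.47 and -0.35 in vehicle libraries. The groups overlapped, and the difference of the means was -0.06 (two-sided exact permutation p = 0.8), or 0.0745 when the median of the list replaced its mean. It was -0.25 without combination replicate 2 and 0.10 without combination replicate 3, so its sign rested on single libraries.

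Relative to S phase Uhrf1 was at 1.25, 1.46 and 1.39 in combination libraries and at 1.57, 1.58 and 1.64 in vehicle libraries. The combination libraries lay below the vehicle libraries, with a difference of -0.23 (exact permutation p = 0.1, the smallest that 3 against 3 allows, so that no such test could pass). With the median of the list the difference was -0.0949. The 5-azacitidine libraries, at 1.56, 1.39 and 1.27, also lay below vehicle (difference -0.18, exact permutation p = 0.1). For PD-901 the difference of Uhrf1 from vehicle was -0.12 (exact permutation p = 0.5), with overlapping libraries. Dnmt1 was at 1.46, 2.11 and 1.78 in combination and at 2.07, 2.10 and 2.11 in vehicle libraries, with a difference of -0.30 (exact permutation p = 0.4). That difference was -0.14 without combination replicate 1, -0.47 without combination replicate 2 and -0.17 with the median of the list. Against vehicle Dnmt1 had differences of -0.35 for 5-azacitidine and -0.27 for PD-901 as well (exact permutation p = 0.4 and 0.2). For 5-azacitidine against vehicle the difference of Dnmt3b was -0.99, with all 3 libraries below vehicle (exact permutation p = 0.1). Uhrf1 thus had a higher share of the library in combination marrow, with a log2 change of 0.50 beside the list's median of 0.71. Because the list itself rose, a gene that rose less has a lower relative level by construction. The relative values of Dnmt1 and Dnmt3b carry the rise of the list in the same way, with a list median of 0.40 for 5-azacitidine. How many of all genes lie below vehicle on this scale was not counted.

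**Figure D4:**
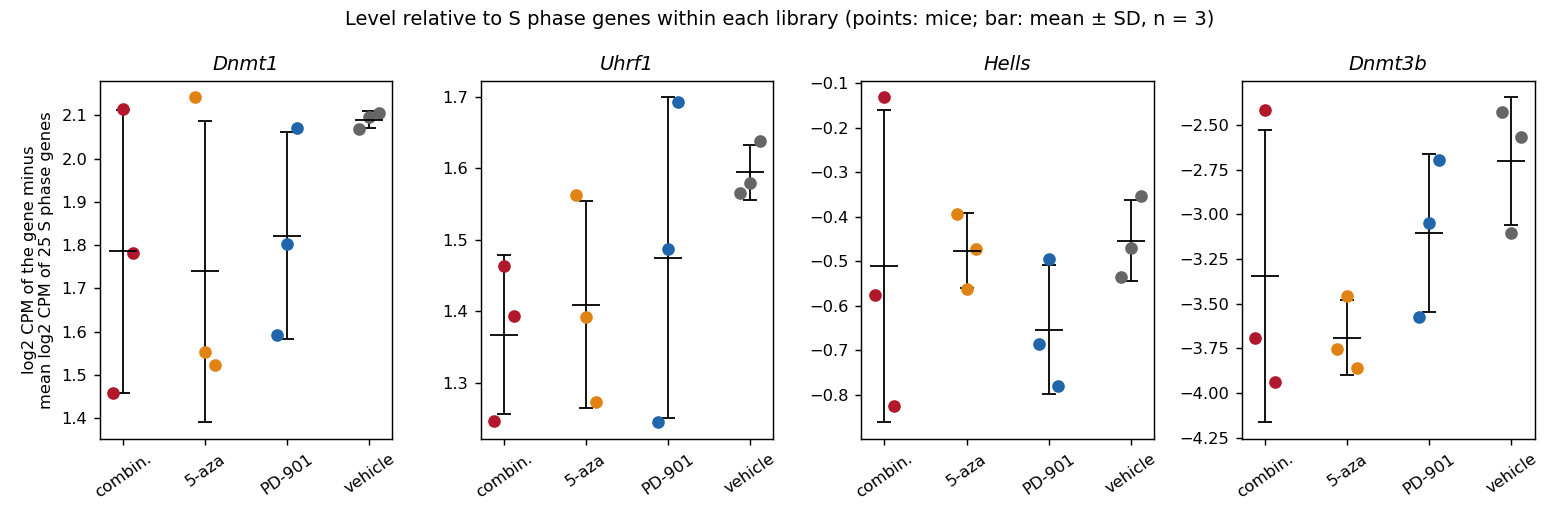
Level of Dnmt1, Uhrf1, Hells and Dnmt3b relative to 25 S phase genes of the same library (vertical axis: log2 CPM of the gene minus the mean log2 CPM of the list), with a point for each mouse and mean ± SD (n = 3) as a bar. Vehicle libraries lie close together for Dnmt1 (2.07 to 2.11), and the 3 combination libraries lie below the vehicle libraries for Uhrf1.

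The genes whose levels most resembled each of the set over the 12 libraries were found by Pearson correlation of log2 CPM, as a description of libraries that share groups, depth and scaling. Dnmt1 was nearest to Baz1b (r = 0.97), Mdc1 (0.97) and Pom121 (0.96). Uhrf1 was nearest to Gen1 (0.97), Fancd2 (0.96) and Supt16 (0.95), and Hells to Naa15 (0.97), Mtf2 (0.96) and Xpo5 (0.95). Tet3 was nearest to Rbm33, Med13 and Kmt2e (0.97 each), Tet2 to Spag9 (0.95), Man2b2 (0.94) and Pip4k2b (0.93), and Tet1 to Qrich1 (0.94), Nup210 (0.88) and Rpap1 (0.86).

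Gadd45a was nearest to Hist1h2bc (0.98), Map1lc3b (0.98) and Phf1 (0.97), and Mbd2 to Mkrn1 (0.93), March2 (0.92) and Cd82 (0.92). The de novo enzymes had the weakest best matches, Dnmt3a with Traf3ip2 (0.89), Zfhx2 (0.88) and Plekhm2 (0.88), and Dnmt3b with Chdh (0.89), Mex3a (0.86) and Trio (0.86). Within the set, Dnmt1 varied with Uhrf1 (r = 0.85, Spearman rho 0.87) and inversely to Gadd45a (r = -0.83, rho -0.85), each over 12 libraries. After the group means were taken out these were 0.80 and -0.80. With the mean of the S phase list, r was 0.56 for Dnmt1, 0.85 for Uhrf1, 0.80 for Hells and -0.17 for Dnmt3b. Within groups, in the same order, r was 0.09, 0.50, -0.03 and -0.76.

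A list of 68 further genes of the pathway, 54 of them tested, was followed in the same model. In combination marrow 11 were higher and 3 lower than in vehicle marrow, with a median log2 change of 0.31 beside 0.01 over all genes tested, and beside 5.78% of all genes called higher and 7.97% called lower. The 11 became 6 without vehicle replicate 1, 7 without combination replicate 1, 5 without combination replicate 3 and 2 without the 4 libraries lowest in Lyz2. Against vehicle edgeR called 0 of the list in 5-azacitidine marrow and 0 in PD-901 marrow, with 18 and 1 at an unadjusted p under 0.05. DESeq2 called 4 and 0 there, and limma-voom 0 in both.

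Genes that supply the methyl group gave the most calls, 5 higher of 9 tested. Mthfd1, a folate enzyme, had 275, 202 and 284 CPM in combination libraries and 95.3, 136 and 151 CPM in vehicle libraries (log2 change 0.99 ± 0.19, edgeR adjusted p = 0.00550). Ahcy, which removes the S-adenosylhomocysteine that methyltransferases release, had 172, 162 and 170.3 CPM in combination and 95.3, 95.0 and 119 CPM in vehicle libraries (0.71 ± 0.12, adjusted p = 0.00333). In both genes every combination library was above every vehicle library, beside 16.1% of all genes. The 5-azacitidine libraries lay above vehicle too, at 209, 180 and 154 CPM of Mthfd1 and 129, 131 and 128 CPM of Ahcy, beside 10.8%. PD-901 libraries overlapped with vehicle for both, and edgeR called neither gene in a single-agent group. In combination marrow Shmt2 (0.74) and the methionine synthase gene Mtr (0.58) also rose against vehicle. Ahcy, Mtr and Shmt2 rose against PD-901 as well. Mtr was the single gene of the list higher in the combination than with 5-azacitidine, by 0.74 (adjusted p = 0.0404). Shmt2 also serves nucleotide synthesis.

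**Figure D5:**
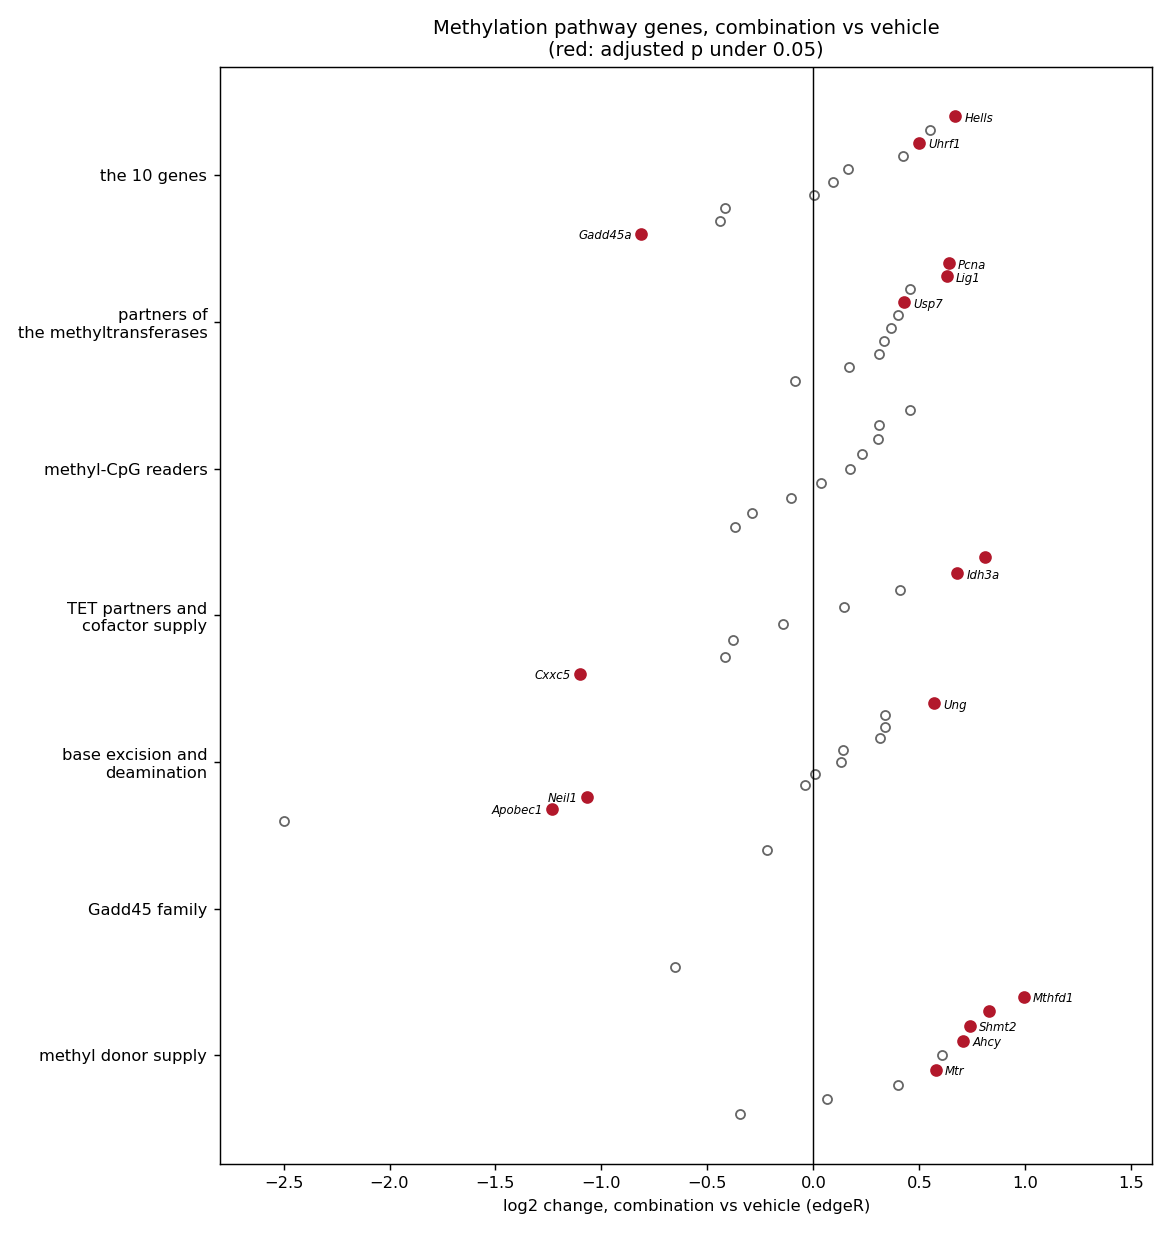
Log2 change of the combination against vehicle from edgeR (horizontal axis) for the 10 genes and for the tested genes of 6 role groups of the pathway, 1 point per gene, spread vertically within a group in order of change. Red points have an adjusted p under 0.05, and those described in the text are named, and the methyl donor group holds 5 of the 11 higher ones.

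Of 10 partners of the methyltransferases 3 rose: Pcna, the replication clamp that DNMT1 binds, by 0.64, Lig1, the ligase of Okazaki fragments whose methylated form UHRF1 binds, by 0.63, and Usp7, the deubiquitinase that acts on UHRF1 and DNMT1, by 0.43 (edgeR adjusted p = 0.0191, 0.0101 and 0.0310). Pcna libraries of PD-901 alone, at 414, 418 and 350.4 CPM, also lay above the vehicle ones, at 295, 346 and 316 CPM, beside 6.83% of all genes. None of the 9 other methyl-CpG readers passed at an adjusted p under 0.05 by edgeR, with 0 at an unadjusted p under 0.05 as well. Of 8 TET partners and suppliers of their cofactor 2 rose and 1 fell. Among those that rose, Idh3a, a subunit of the mitochondrial enzyme that makes 2-oxoglutarate, changed by 0.68. Cxxc5, a CXXC protein that binds unmethylated CpG and TET2, fell by 1.10 on the log2 scale, with 12.3, 15.3 and 10.6 CPM in combination and 24.4, 27.2 and 30.2 CPM in vehicle libraries (edgeR adjusted p = 0.00734).

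Of 11 genes of base excision and deamination, 1 rose and 2 fell. Ung, the uracil glycosylase, rose by 0.57 (edgeR adjusted p = 0.0259). Its PD-901 libraries, at 28.5, 30.9 and 31.4 CPM, also lay above the vehicle ones, at 20.5, 24.7 and 22.3 CPM, beside 6.83% of all genes. Apobec1, a cytidine deaminase, had 44.8, 51.9 and 34.5 CPM in combination and 98.2, 99.7 and 110.4 CPM in vehicle libraries, without overlap (log2 change -1.23 ± 0.22, adjusted p = 0.00401). The glycosylase Neil1 changed by -1.07 (adjusted p = 0.0261), and both were lower than in PD-901 marrow too, by -0.99 and -1.54 on the log2 scale. With 5-azacitidine alone Apobec1 also lay below vehicle, at 46.8, 96.0 and 64.5 CPM, beside 9.77% of all genes, while Neil1 overlapped with vehicle. The demethylation glycosylase Tdg was at 0.31 (adjusted p = 0.154). Gadd45b and Gadd45g, the relatives of Gadd45a, had log2 changes of -0.22 and -0.65 (adjusted p = 0.536 and 0.210).

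Germline genes that promoter methylation keeps silent in somatic cells were at low levels in every group. Of 16 such genes 3 had no count in any of the 12 libraries, 5 had enough counts to be tested, and 0 passed in any comparison with edgeR, DESeq2 or limma-voom, with 0 at an unadjusted p under 0.05 for each treated group against vehicle and for the combination against PD-901 by edgeR. Against 5-azacitidine 1 did (Ddx4, higher in the combination), and with DESeq2 1 did for 5-azacitidine against vehicle. The median log2 change of the 5 against vehicle was 0.87 for the combination, 0.84 for 5-azacitidine and 0.94 for PD-901, in comparisons that share the vehicle libraries. The highest level in any library was 4.81 CPM. Ddx4, the germ cell helicase, averaged 3.18 CPM in combination, 1.33 CPM in 5-azacitidine, 2.80 CPM in PD-901 and 1.89 CPM in vehicle marrow, with a log2 change of 0.75 ± 0.57 for the combination against vehicle (edgeR adjusted p = 0.453). Rnf17, a Tudor domain gene of germ cells, averaged 2.16 CPM in combination, 2.34 CPM in 5-azacitidine, 1.98 CPM in PD-901 and 1.03 CPM in vehicle marrow. Its log2 changes against vehicle were 1.06 ± 0.56, 1.17 ± 0.56 and 0.94 ± 0.56 for those 3 groups in turn (edgeR adjusted p = 0.241, 0.336 and 0.960), and the libraries overlapped with vehicle in each.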

How the data were processed

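RNA sequencing of 12 bone marrow samples was analysed. The authors deposited whole-number read counts for each gene, not normalized. Subread 1.6.5 and featureCounts, STAR 2.7.2a, bcl2fastq and build mm10 stand in the submitters' processing notes. For the annotation release and the strand setting the sources used here give nothing. Per the labels RNA integrity numbers were above 7.

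Counts were tested in R 4.3.3 with edgeR 4.0.16. The filter filterByExpr (minimum count 10, minimum total 15) left 17475 genes, TMM scaled the libraries (factors 0.929 to 1.07), and 1 quasi-likelihood model with 4 group means covered the 12 libraries (residual degrees of freedom 8). Tests were two-sided, with the Benjamini-Hochberg adjustment taken over every tested gene. Genes with few counts are limited most by the smallest library. Libraries of a group were not copies: chi-square over degrees of freedom was 18.1 to 61.4 between them. The labels call the samples separate mice, and replicate numbers only name them.

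All 10 genes are named in every comparison. Of the other pathway genes, those past the threshold and up to 4 per role group with the lowest p may be named, and for likeness the 3 genes with the highest r. Tdg was named after its values were seen, and some genes of the list are not reported here. Mat2a and Slc25a31, whose symbols stand on 2 identifiers each with at most 7 counts, have no reported level. The members and lists were chosen with earlier results of these data known. The test was tried on simulated counts. Alternatives were DESeq2 size factors, no filter, a minimum count of 30, DESeq2 1.42.0, limma-voom (limma 3.58.1), the compared groups alone, and leaving out each library. Gene coordinates are those of GENCODE M21, whose start and end matched the table for all 10 genes, and promoter sequence is from RefSeq GRCm38.p6.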

Additional observations from a re-analysis of the deposited data

How the results depend on the processing

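No paired analysis was possible because the labels give no replicate number that groups share. The cause of the changes between settings was not tested. Of the 10 genes 3 were called for the combination against vehicle, 1 to 3 without any 1 library, 0 without the 4 libraries lowest in Lyz2 and 0 with Xist status as a covariate, both chosen after seeing the data. Against PD-901 the 2 calls became 0 to 2 without 1 library, 0 without the low-Lyz2 libraries and 1 with the Xist covariate. Against 5-azacitidine the 0 calls became 1 with no low-count filter and 0 to 1 without 1 library, and for the interaction 1 with no filter, in each case Gadd45a. The joint test's 2 calls became 3 with DESeq2, 1 with limma-voom, 0 to 2 without 1 library, 0 without the low-Lyz2 libraries and 0 with the Xist covariate. The pathway list's 11 higher calls became 5 to 12 without 1 library, 2 without the low-Lyz2 libraries and 0 with the Xist covariate, and its 3 lower calls 5 with no filter, 6 with DESeq2 and 0 with the Xist covariate. The level of Uhrf1 relative to the S phase list was -0.0949 with the list's median, against -0.23 with its mean and -0.21 without Ccne1, Ccne2, E2f1 and Slbp (the median and the shorter list were chosen after seeing the data). Without 1 library the relative level ranged from -0.25 to 0.10 for Hells and from -0.47 to -0.14 for Dnmt1. Over all genes DESeq2 called 613 for 5-azacitidine against vehicle, 2215 for the combination against PD-901 and 1048 for the combination against 5-azacitidine, where edgeR called 1, 1191 and 231.

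Signs changed for values that passed the test in neither setting. Without any 1 library the log2 change against vehicle ranged, for the combination, from -0.30 to 0.39 for Dnmt3b, -0.16 to 0.14 for Tet3 and -0.0547 to 0.24 for Mbd2. For 5-azacitidine it ranged from -0.18 to 0.18 for Dnmt1, -0.51 to 0.0201 for Tet1 and -0.34 to 0.0599 for Gadd45a. For PD-901 it ranged from -0.11 to 0.14 for Dnmt1, -0.31 to 0.12 for Dnmt3b, -0.0349 to 0.15 for Hells and -0.0707 to 0.34 for Tet1. For the combination against PD-901 it ranged from -0.20 to 0.48 for Dnmt3b, -0.42 to 0.20 for Tet2 and -0.15 to 0.15 for Mbd2, and against 5-azacitidine from -0.55 to 0.22 for Tet2 and -0.15 to 0.15 for Mbd2. The interaction ranged from -0.19 to 0.11 for Dnmt3a, -0.14 to 0.63 for Tet2 and -0.25 to 0.0460 for Mbd2.

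Without the low-Lyz2 libraries the combination against vehicle gave -0.45 for Dnmt3b and -0.11 for Tet1, PD-901 gave -0.31 for Tet1 and 5-azacitidine 0.18 for Gadd45a. The combination against PD-901 then gave -0.31 for Dnmt3b and 0.23 for Mbd2, against 5-azacitidine 0.24 for Mbd2, and the interaction 0.0137 for Dnmt3a and 0.0101 for Mbd2. With the Xist covariate PD-901 gave 0.0394 for Dnmt3b, and the combination against PD-901 0.0532 for Tet2. Tet3 in the combination against vehicle was at -0.00639 with DESeq2 size factors, -0.00136 with the stricter filter, -0.00641 with DESeq2 and -0.0148 with limma-voom. Mbd2 against PD-901 was at 0.00495 with the stricter filter and 0.000101 with the compared groups alone, and against 5-azacitidine at 0.0103 with the stricter filter.

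With 3 mice a group and Xist status that follows the groups, the calls rest on few animals. Tet1, at 57 to 175 counts per library, is the member most limited by depth.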
